A study of Mus musculus with 19 samples.

Results

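The genes for the proteins of the cytosolic ribosome were followed here through the differentiation of mouse myoblasts in culture. The set was every protein-coding gene whose symbol is Rpl or Rps and a number, with nothing after it but up to 2 of the letters a, l, x and y, together with Rpsa, Rplp0, Rplp1, Rplp2 and Rpl22l1. It held 82 of the 35598 genes in the files: 48 of the large subunit without its stalk, 3 stalk proteins and 31 of the small subunit. Enough reads for a test were found for 80 of them; Rpl10l and Rpl39l were not tested. The 19 libraries of messenger RNA came from primary hind-limb myoblasts of the mouse, the muscle precursor cells that leave the cell cycle, differentiate and fuse into multinucleate myotubes. Cells were collected while proliferating at 24 h, as differentiated myotubes at 48 h and as fused myotubes at 72 h, labelled either WT or Glud1KO at each stage. WT had 3, 3 and 4 libraries and Glud1KO had 3, 2 and 4. Strain, age, the Glud1 allele and how it was inactivated are not given in the sources used here. Replicates are numbered as biological, without a statement that they come from separate animals or cultures, so all p-values measure the spread between these libraries, which may in part be technical.

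A ribosome has a small subunit, which reads the messenger RNA, and a large subunit, which joins amino acids. Its proteins are needed in fixed proportions, and their messenger RNAs are among the most abundant of a growing cell; most begin with a short run of pyrimidines, the TOP motif, through which the mTOR kinase and the RNA-binding protein Larp1 set their translation. A few members have a second gene that makes a closely similar protein. Rpl3l, the paralog of Rpl3, is known for its restriction to skeletal muscle and heart, where it can replace Rpl3 near the site of peptide bond formation.

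Libraries held 16168131 to 30742634 estimated counts. Glud1, which encodes the mitochondrial glutamate dehydrogenase, did not separate the labels: it lay at 184 to 192 CPM (counts scaled to library size and by TMM, edgeR's scaling between libraries) in WT and 185 to 190 CPM in Glud1KO myoblasts, at 102 to 112 and 96.6 to 103 CPM in differentiated myotubes, and at 131 to 141 and 130 to 139 CPM in fused myotubes. In the file names, KO stands in both groups, and a T follows it where the label is Glud1KO. The labels were followed, and the libraries labelled Glud1KO are written as KO-labelled. Of 9 markers of muscle stages, 6 rose and 3 fell from WT myoblasts to differentiated myotubes, and 2 rose and 6 fell from there to fused myotubes. Mki67, a gene of dividing cells, was at 199 CPM on average in WT myoblasts, 4.65 in differentiated and 0.125 in fused myotubes, and Myh3, the embryonic myosin heavy chain, at 221, 16135 and 13963 CPM. Myog, the differentiation factor myogenin, was at 114, 2479 and 885 CPM, and the myoblast gene Myf5 was highest in fused myotubes, at 83.2, 63.3 and 125 CPM. The summed markers of adipocytes, endothelial cells and leukocytes stayed between 0 and 1.92 CPM in each library. The 8 fibroblast markers summed to 287 to 294 CPM in WT myoblasts, nearly all of it Col3a1 with 282 CPM on average; Dpt was at 0 in every library and Lum did not exceed 0.0327 CPM. The fibroblast sum was 24.3 to 27.1 CPM in WT and 8.13 to 12.1 CPM in KO-labelled differentiated myotubes, and its part in the results below was not tested.

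The starts of 3 members are shown because Rpl3l rose most over the time course, Rpl10a was among the largest falls, and Rpl24 did not pass the test over the whole course in WT. Each run holds the 100 bases before and the first 20 bases from the RefSeq transcription start in build GRCm38.p6, on the plus strand, with every CANNTG in capitals, the E-box core that MyoD and myogenin recognise.
Rpl3l, chr17:24727726-24727845: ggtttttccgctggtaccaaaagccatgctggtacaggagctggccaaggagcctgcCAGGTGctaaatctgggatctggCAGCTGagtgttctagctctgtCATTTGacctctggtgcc
Rpl10a, chr17:28328371-28328490: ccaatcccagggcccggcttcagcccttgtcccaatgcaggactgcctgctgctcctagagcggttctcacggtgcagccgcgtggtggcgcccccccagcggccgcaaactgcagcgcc
Rpl24, chr16:55966175-55966294: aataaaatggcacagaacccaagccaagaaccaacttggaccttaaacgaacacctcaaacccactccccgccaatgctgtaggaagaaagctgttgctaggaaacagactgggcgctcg
Starts were listed for 62 of the 82 members, 74 starts in all. On either strand, CANNTG was found in 14 of the 74 (18.9%), against 40.2% of 32851 starts of all genes in windows of the same length. CAGCTG, a form of CANNTG, was found in 1 of the 74 (1.35%), the start of Rpl3l, and in 7.14% of all starts. A run of at least 8 pyrimidines at the start was found in 21 of the 74 (28.4%) and in 7.43% of all starts. The Rpl3l window held 3 CANNTG matches, while the windows of Rpl10a and Rpl24 held none. These are letter matches, with no measurement of binding.

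Ribosomal protein messenger RNA was abundant in dividing myoblasts, and its share of all transcripts was far lower at the next stage. On the TPM scale, which is per length, the 82 genes took 20.3%, 19.5% and 20.3% of all transcripts in the 3 WT myoblast libraries and 20.4% in each of the 3 KO-labelled ones. In differentiated myotubes they took 10.5% ± 0.569 (SD, 3 libraries) under the WT label and 10.2% ± 0.449 (SD, 2 libraries) under the other, and in fused myotubes 9.64% ± 0.218 and 9.37% ± 0.261 (SD, 4 libraries each). The lowest myoblast library lay well above the highest myotube library, which was at 11.1%, while the labels overlapped among differentiated and among fused libraries. In bulk RNA of a mixed culture, fewer cells of a kind and less RNA per cell cannot be told apart.

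**Figure D1:**
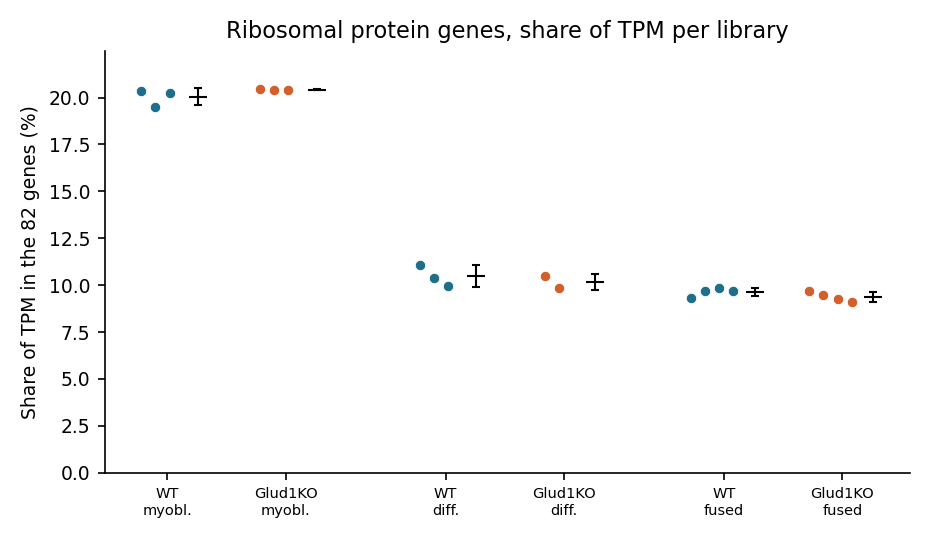
Share of each library's TPM, in percent, held by the 82 ribosomal protein genes, for WT (blue) and Glud1KO (orange) myoblasts, differentiated (diff.) and fused myotubes. Points are libraries and bars the mean ± SD; myoblasts lie at 19.5% to 20.4% and all myotubes at 11.1% or below.

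Members of 1 particle differed widely in RNA level. In WT myoblasts the median member stood at 2196 TPM, and the 79 members above 50 TPM spanned 22.6-fold. Rps12, a small-subunit protein, led with 10287 ± 522 TPM (SD, n = 3), ahead of Rpl41, the smallest protein of the ribosome, with 9201 ± 606. The order held in each of the 3 libraries, though the lowest value of Rps12, 9777, was below the highest of Rpl41, 9805. Rps24 (5489 ± 277) and Rplp1 (5268 ± 411) followed and overlapped within their SDs. The lowest of the 79 was Rpl22l1 with 456 ± 32.3 TPM. In WT fused myotubes the median was 1077 TPM and the span 66.3-fold, from Rpl41 with 5012 ± 334 TPM (SD, n = 4) to Rpl22l1 with 75.6 ± 9.85. Rps24 (2436 ± 85.4) and Rps12 (2301 ± 96.9) came next to Rpl41 and were separated by little more than 1 SD. Rpl3, which binds early in large-subunit assembly, ranked just above Rpl22l1 in fused myotubes with 448 ± 8.40 TPM.

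Between myoblasts and differentiated WT myotubes the set fell almost as a whole. Of 80 tested members, 79 fell, none rose, and the median log2 fold change was -0.75 (quasi-likelihood test of edgeR, Benjamini-Hochberg adjusted across every gene tested, and called where that p was under 0.05). Of all 15123 genes tested, 85% were called in this comparison and 42.6% were called lower and 42.4% higher, with a median change of 0.02. The one member not called was Rpl3l. The fall spanned a wide range, from -0.10 in Rpl24, whose groups overlapped, to -1.56 in Rpl3, and 12 of 80 members were at least 2-fold lower, against 3386 of all 15123 genes. All 3 stalk proteins and all 31 small-subunit members fell, the latter with a median of -0.80, against -0.70 for the large subunit.

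Rpl3 fell the most. It stood at 1343, 1345 and 1417 CPM in WT myoblasts and at 478, 451 and 467 CPM in differentiated myotubes. The groups were far apart, a 2.94-fold fall, with a log2 fold change of -1.56 ± 0.040 (SE, adjusted p = 4.93e-23 by edgeR). Rpl12, a protein at the base of the stalk, went from 967, 911 and 938 CPM to 386, 368 and 338 CPM, a change of -1.37 ± 0.049. Rpsa, a small-subunit protein also known as a laminin receptor, went from 2059, 2093 and 2247 CPM to 898, 828 and 819 CPM, a change of -1.33 ± 0.049. Rps23, which lies in the decoding centre, changed by -1.25 ± 0.055 and Rps2, at the entry of the messenger RNA channel, by -1.18 ± 0.054. No myotube library reached the lowest myoblast library in these 5 genes, which the rule for naming genes required.

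From differentiated to fused WT myotubes, members parted ways: 18 rose, 17 fell and the median change was 0.01. That is 43.8% of the tested members, against 75.1% of all genes called, 37.4% higher and 37.7% lower. The balance depended on the scaling, with 10 higher and 25 lower when libraries were scaled by their size alone, and 1 higher and 69 lower when a trend with transcript length and GC content was removed. The shares of all genes called under these scalings are not given here, so neither balance can be set against them. Members are short, with a median length of 610 bases against 2317 for all genes tested. That correction removed the length and GC trends at once, and the part of either in the change was not tested.

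The 4 largest falls held under each of these scalings. Rpl22l1 went from 36.0, 34.7 and 27.1 CPM to 13.7, 16.4, 12.2 and 14.2 CPM, a change of -1.20 ± 0.096 (adjusted p = 1.26e-11, edgeR). Rps12 went from 860, 841 and 762 CPM to 479, 527, 566 and 538 CPM, a change of -0.64 ± 0.055. Rpl10a, a protein of the L1 stalk, went from 300.2, 272 and 255 CPM to 187, 197, 205 and 199 CPM, a change of -0.48 ± 0.047. Rps19, known for its mutation in Diamond-Blackfan anaemia, changed by -0.41 ± 0.055. Every fused library lay below every differentiated one in these 4 genes, again as the naming rule required. On the other side, Rps29 rose from 284, 257 and 249 CPM to 297, 324, 337 and 314 CPM, a change of 0.27 ± 0.050 (adjusted p = 2.52e-05, edgeR). Rps25, Rpl29 and Rpl38 rose by 0.26 each. Of these 4 rises, those of Rps29, Rpl29 and Rpl38 had the opposite sign, and that of Rps25 was lost, once the length and GC trend was removed.

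Over the whole course in WT, 77 members were lower in fused myotubes than in myoblasts and 1, Rpl3l, was higher, with a median change of -0.72; of all genes, 85.5% were called, 43.4% lower and 42.2% higher. Members moved to very different degrees. Rpl22l1 fell 4.95-fold (log2 fold change -2.31 ± 0.088, adjusted p = 2.29e-19), Rpl3 3.64-fold, Rps12 3.38-fold, Rpl10a 3.15-fold and Rpl12 3.06-fold. Rpl38, which is known for its role in translating Hox genes, fell by 0.14 on the log2 scale. Rpl24, a protein at the subunit interface, stood at 456, 407 and 424 CPM in myoblasts and at 420, 445, 459 and 449 CPM in fused myotubes, and Rpl36al at 149, 142 and 142 CPM against 139, 152, 155 and 140 CPM. Both overlapped between the stages and neither was called, with changes of 0.05 ± 0.044 and 0.02 ± 0.042. With scaling by library size alone, the median of all genes moved from -0.01 to -0.33 in this comparison; members lay 0.71 below that median, as against 0.70 below it with TMM. Rpl36al was then called lower, at -0.30.

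The stalk, a protruding arm that recruits elongation factors, is built from Rplp0 with pairs of Rplp1 and Rplp2. Rplp0 fell by 1.25 and Rplp1 by 1.28 on the log2 scale from WT myoblasts to fused myotubes, whereas Rplp2 fell by 0.63. Rplp0 went from 2587, 2511 and 2724 CPM to 1034, 1108, 1145 and 1091 CPM. Rplp2 went from 608, 529 and 548 CPM to 327, 362, 390 and 372 CPM. All 3 fell from myoblasts to differentiated myotubes. Between differentiated and fused myotubes Rplp0 (-0.23 ± 0.051) and Rplp1 (-0.31 ± 0.060) fell again and Rplp2 (0.08 ± 0.060, adjusted p = 0.206, edgeR) was not called. With the length and GC trend removed, the Rplp2 change at this step turned negative, as listed in the closing section. The difference between stalk proteins was not tested.

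In KO-labelled libraries, as in WT, most members were lower at both myotube stages than in myoblasts. The balance between the 2 myotube stages was not that of WT, which had 17 lower and 18 higher. From myoblasts to differentiated myotubes 77 of 80 members fell and 1 rose, with a median of -0.69, where 83.7% of all genes were called, 42.5% lower and 41.3% higher. At the next step, to fused myotubes, 27 fell and 5 rose, with a median of -0.07, where 70.2% of all genes were called, 34.4% lower and 35.8% higher; with the length and GC trend removed 77 fell and 1 rose. Over the whole course 79 fell and 1 rose, with a median of -0.78, where 87.2% of all genes were called, 44.5% lower and 42.7% higher. The 5 largest falls over the course were those of the same 5 genes as in WT: Rpl22l1 (-2.68 ± 0.090), Rpl3 (-1.95 ± 0.037), Rps12 (-1.76 ± 0.055), Rpl10a (-1.75 ± 0.046) and Rpl12 (-1.69 ± 0.046).

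**Figure D2:**
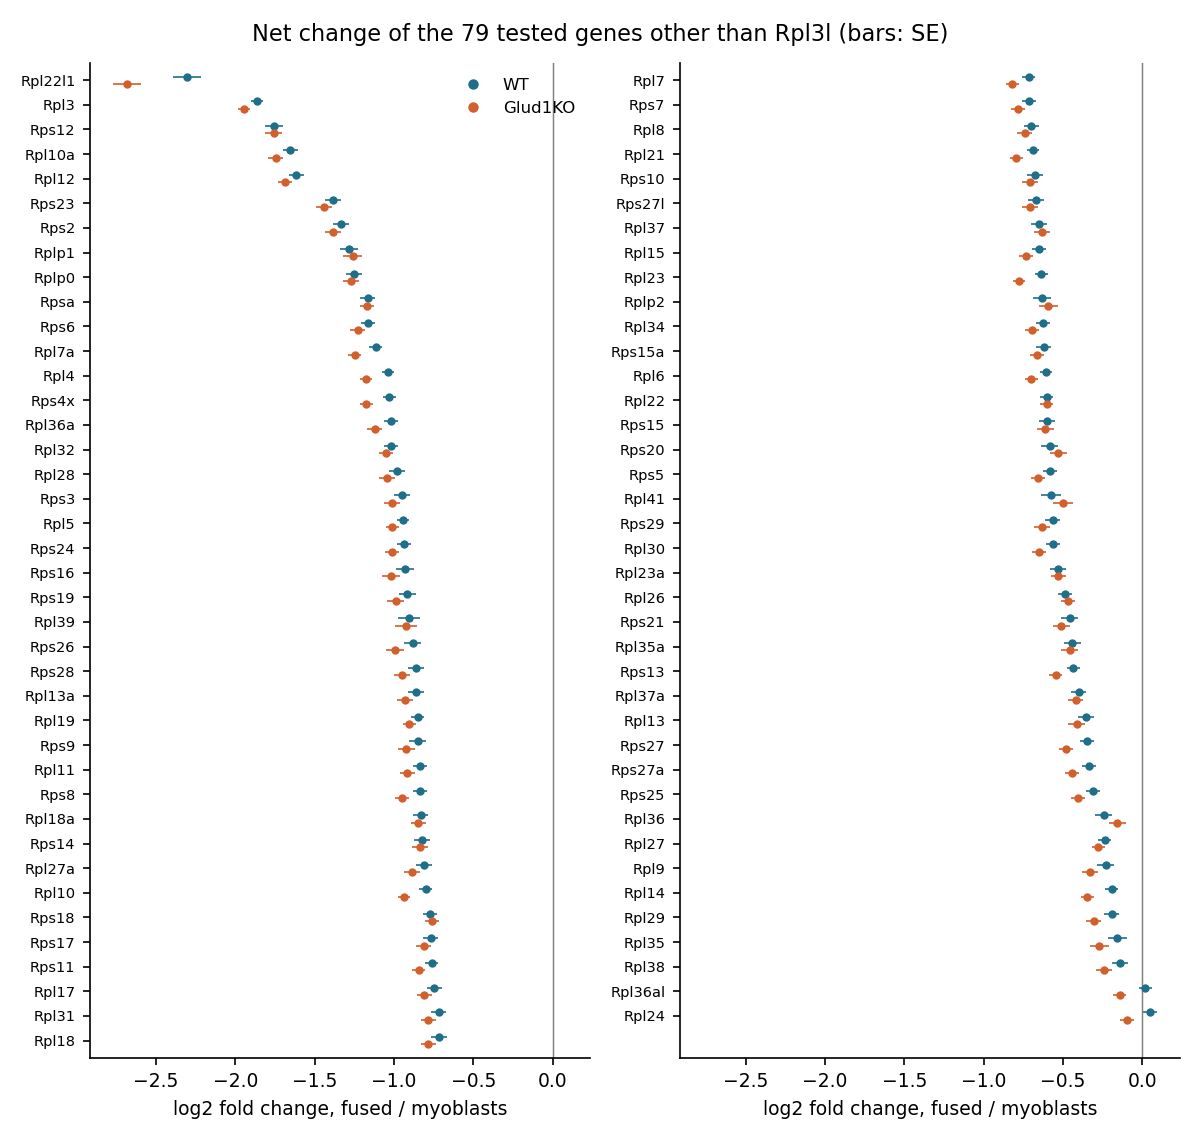
Log2 fold change from myoblasts to fused myotubes for the 79 tested members other than Rpl3l, ordered by the WT value, with WT in blue and Glud1KO in orange; bars are standard errors. Values run from -2.31 for Rpl22l1 to 0.05 for Rpl24 in WT, and the 5 genes at the top of the left panel lead in both labels.

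Rpl3l appeared with fusion, while Rpl3 stayed the major gene of the pair. The Rpl3l gene (ENSMUSG00000002500.15) spans chr17:24727820-24736143 (GRCm38, plus strand) and Rpl3 (ENSMUSG00000060036.14) spans chr15:80077791-80091868 (minus strand). Rpl3l had 2, 1 and 0 counts in the WT myoblast libraries and 0, 4 and 2 in differentiated myotubes. It had 74, 34, 49 and 62 counts in the 4 WT fused libraries, or 2.16 to 3.38 CPM. In KO-labelled libraries it had 0, 0 and 1, then 1 and 3, then 28, 42, 53 and 26 counts. The fused libraries stood apart from all others in both labels. In WT, the level over the fused libraries was 33.8 times that over the differentiated ones (95% exact interval 15.3 to 93.2, counting error only) and 76.1 times that over the myoblasts (25.7 to 372). The change from differentiated to fused myotubes passed the test in WT (4.99 ± 0.41, adjusted p = 1.53e-11) and in KO-labelled libraries (4.20 ± 0.52, adjusted p = 5.57e-08, edgeR). With at most 4 counts in any other library, Rpl3l passed the expression filter only through the fused groups, where it is high. These p-values are therefore given as a description. In KO-labelled libraries the rise from myoblasts to differentiated myotubes was called as well (adjusted p = 0.040, edgeR) but rests on 4 counts against 1. The fused KO-labelled libraries had a lower mean than WT, by 0.45 ± 0.21 on the log2 scale, which did not pass the test (adjusted p = 0.189, edgeR). Even in fused WT myotubes Rpl3l made up 0.778% ± 0.0793 (SD, n = 4) of the TPM of the pair, since Rpl3, at 360 to 389 CPM, remained far above it. Rpl3 and Rpl3l are similar in sequence, and how kallisto divided any reads that match both was not tested.

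Rpl22l1 lost ground to Rpl22, a protein that also binds RNA outside the ribosome. Rpl22l1 stood at 76.4, 68.7 and 64.4 CPM in WT myoblasts and at 12.2 to 16.4 CPM in WT fused myotubes. Rpl22 stood at 283, 271 and 272 CPM in WT myoblasts, at 183, 175 and 159 CPM in differentiated and at 173 to 186 CPM in fused myotubes. Rpl22 fell from myoblasts to differentiated myotubes (-0.67 ± 0.045) and was not called between differentiated and fused myotubes (0.07 ± 0.043, adjusted p = 0.127, edgeR). With the length and GC trend removed, the sign of that later change turned negative, as listed in the closing section. Rpl22l1 fell at both steps. Its share of the TPM of the pair was 23.9% ± 1.36 (SD, n = 3), 19.8% ± 1.40 (SD, n = 3) and 9.69% ± 1.05 (SD, n = 4) in WT, and 25.8% ± 1.96, 18.2% ± 0.543 and 7.98% ± 0.561 in KO-labelled libraries. At the fused stage all 8 libraries lay below 11%, under each of the 5 differentiated libraries.

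In the pair of Rpl36a and Rpl36al, Rpl36a had the larger fall. Rpl36a went from 312, 307 and 316 CPM in WT myoblasts to 167, 148 and 148 CPM in differentiated myotubes (-1.02 ± 0.049), against -0.11 ± 0.045 for Rpl36al. With protein-coding transcripts only, the Rpl36al value turned slightly positive, as listed in the closing section. The Rpl36al share of TPM rose from 27.5% ± 0.783 (SD, n = 3) to 41.7% ± 1.41 (SD, n = 3) and 43.8% ± 1.38 (SD, n = 4) in WT, and from 28.0% ± 0.281 to 43.8% ± 0.00290 and 43.7% ± 0.403 in KO-labelled libraries. The pair Rps27 and Rps27l, of which Rps27l is known as a target of p53, shifted less: the Rps27l share in WT was 35.2% ± 1.38 in myoblasts, 30.2% ± 0.289 in differentiated and 31.5% ± 0.947 in fused myotubes. Shares of this kind were not tested. Rpl10l, a paralog of Rpl10 known from the testis, had at most 3 counts in a library and was at 0 in 17 libraries. Rpl39l, also known from the testis, had 1 count in 1 library. A level under 3 counts, 0.0859 to 0.2 CPM depending on the library, could have been missed in either. Their partners were both abundant and fell: Rpl10 by 0.80 and Rpl39 by 0.90 on the log2 scale from WT myoblasts to fused myotubes. Rps4x, the X-linked member, fell by 1.03; its partner Rps4l was not analysed here.

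**Figure D3:**
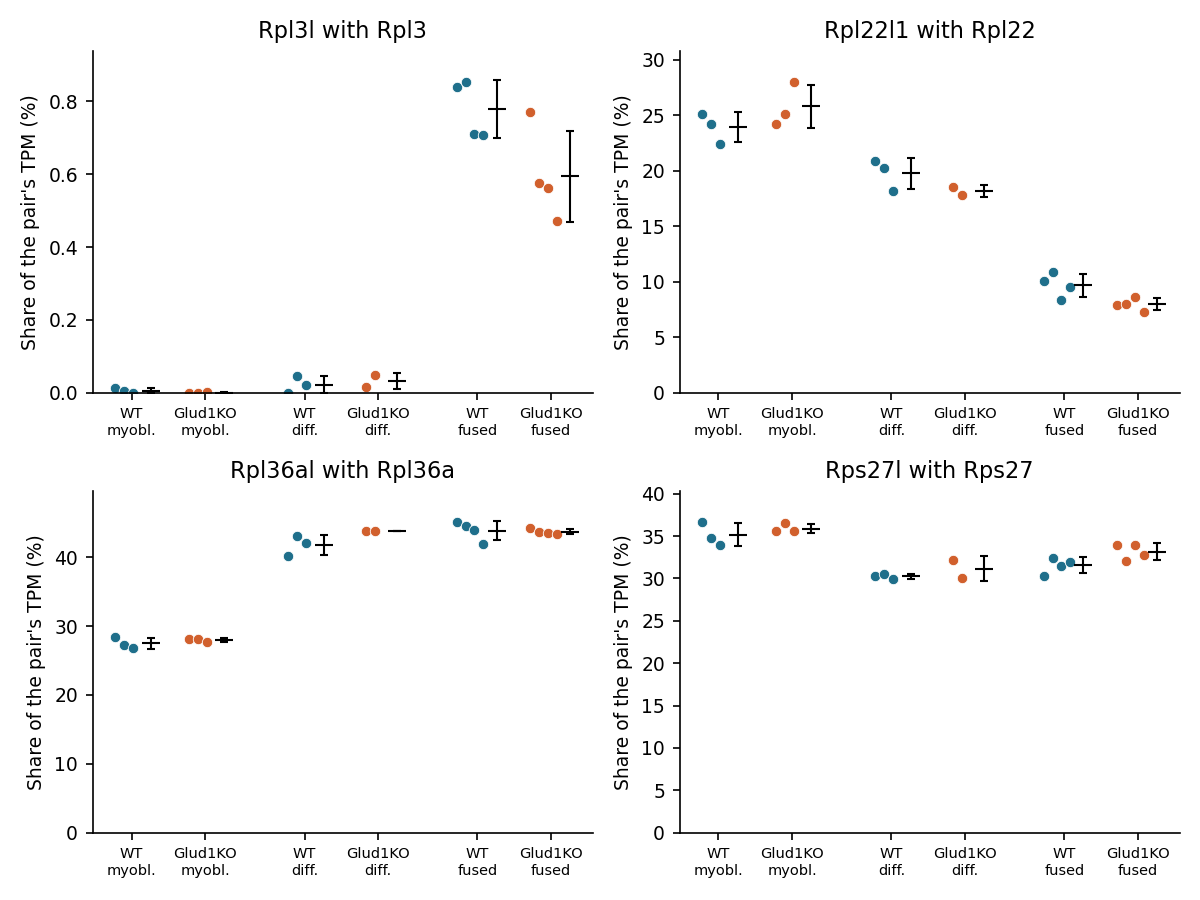
Share of the summed TPM of 4 paralog pairs, in percent, held by Rpl3l, Rpl22l1, Rpl36al and Rps27l. Points are libraries, bars the mean ± SD. Rpl3l is seen in fused libraries at under 1%, Rpl22l1 falls to 9.69% in WT fused myotubes and Rpl36al rises to 43.8%.

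The transcripts of Rps24 changed in kind more than the gene changed in level. Rps24, whose mutation is known in Diamond-Blackfan anaemia, has small alternative exons before its last exon. The sequences across one of them are shown because the 2 forms of this gene shifted furthest among transcripts of limited spread. These were transcripts of tested members other than Rpl3l with an SD under 5 percentage points in every group. Transcripts with a larger SD were not compared. The exon, in capitals, is 18 bases long and lies at chr14:24494052-24494069 on the plus strand of GRCm38, in transcript ENSMUST00000223999; ENSMUST00000169826 joins the same flanking exons without it. The runs start 18 bases before the junction and end 3 bases into the following exon.
Rps24 with the exon: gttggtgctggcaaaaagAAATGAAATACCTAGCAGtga
Rps24 without the exon: gttggtgctggcaaaaagtga
The exon carries 1 further codon, AAA, and a stop codon at 24494055 to 24494057; without it the stop codon is at 24495430 to 24495432, the first bases of the next exon. Of the counts of these 2 transcripts, the form with the exon held 6.97%, 6.59% and 6.15% in WT myoblasts, 40.0%, 43.2% and 40.4% in differentiated and 74.2%, 72.1%, 74.8% and 74.2% in fused myotubes. In KO-labelled libraries it held 6.23%, 6.40% and 6.38%, then 48.2% and 46.7%, then 78.9%, 77.2%, 77.2% and 76.9%. The stages were wide apart and did not overlap, and by this measure the KO-labelled libraries lay above all WT ones at both myotube stages. Of all Rps24 counts, the form with the exon held 3.53%, 20.9% and 35.4% on average in WT and 3.32%, 24.5% and 37.3% in KO-labelled libraries. By that measure the labels overlapped in fused myotubes, with WT libraries at 34.4% to 37.0% and KO-labelled ones at 36.0% to 37.9%. In the WT libraries of all stages, 38.4% to 50.9% belonged to another transcript, ENSMUST00000112384, whose model ends at the stop codon. The total of Rps24 fell by 0.94 ± 0.043 on the log2 scale over the WT course. The choice of Rps24 was made with its values known and no test is given. The 2 forms also differ in their first exon, of 29 and 41 bases, which the estimated counts use as well.

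Among 490 transcripts of the tested members other than Rpl3l, 459 had an SD under 5 percentage points of their gene's counts in every group, and 7 of those shifted by at least 10 points from WT myoblasts to WT fused myotubes. With no limit on the SD, 15 of the 490 did. A second pattern was found in Rpl3, also after its values were seen. Transcripts annotated as retaining an intron made up 1.12%, 1.31% and 0.871% of Rpl3 counts in WT myoblasts, 4.69%, 6.63% and 5.46% in differentiated myotubes, and 0.501% to 1.08% in fused myotubes. In KO-labelled libraries they made up 1.62% to 1.88%, then 6.59% and 6.64%, then 0.297% to 0.840%. The differentiated libraries were highest in both labels. For all members together the retained-intron share was 6.70% in WT myoblasts, 7.11% in differentiated and 6.99% in fused myotubes. In KO-labelled libraries it was 6.94%, 7.16% and 7.22% on average, highest in fused myotubes.

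**Figure D4:**
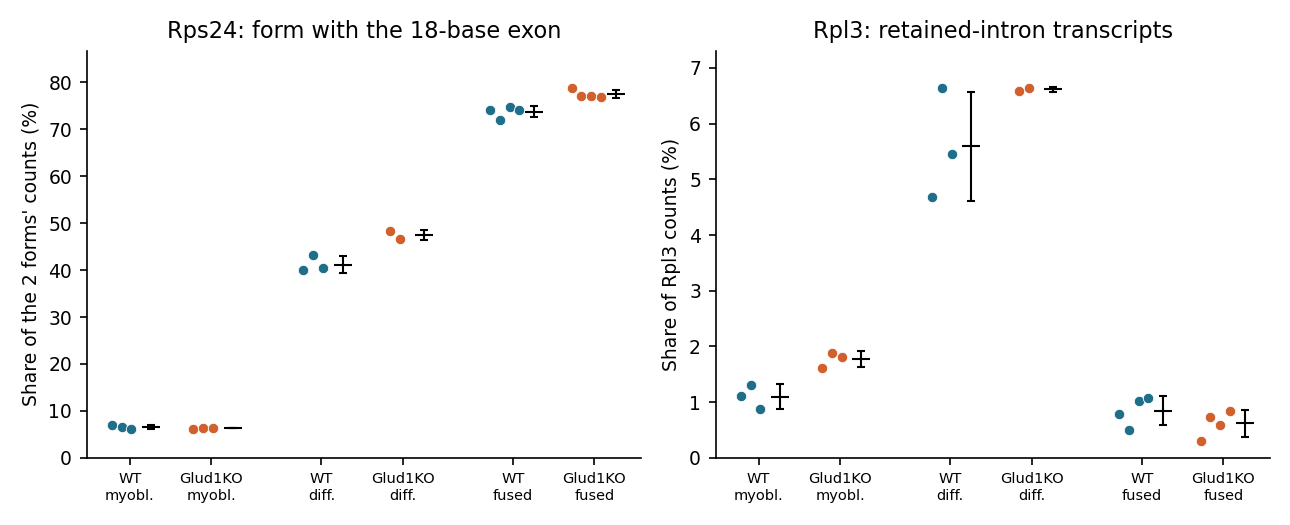
Left, the share of the form with the 18-base exon among counts of the 2 Rps24 transcripts described; right, the share of retained-intron transcripts among Rpl3 counts, both in percent, by group. Points are libraries, bars the mean ± SD; the Rps24 form goes from about 6.57% to 73.8% in WT, and the Rpl3 share peaks at 5.59% in WT differentiated myotubes.

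Between the labels, 1 member passed the test in myoblasts and 1 in fused myotubes. With the length and GC trend removed these counts were 4, all higher, and 20, all lower. The share of all genes called with that trend removed is not given here, and the shares that follow belong to the fit without that removal. In myoblasts 1 of 80 members was called, higher, against 11.6% of all genes tested (4.86% higher, 6.69% lower). In fused myotubes 1 was called, lower, against 13% (6.32% higher, 6.72% lower). In myoblasts this was Rpl24, with 471, 472 and 479 CPM in KO-labelled and 456, 407 and 424 CPM in WT libraries (0.14 ± 0.047, adjusted p = 0.0434); 14 of 80 members and 3796 of 15123 genes had an unadjusted p under 0.05, and DESeq2 called no member. In fused myotubes it was Rpl4, which stood at 761 to 800 CPM in KO-labelled and 802 to 867 CPM in WT libraries (-0.12 ± 0.035, adjusted p = 0.0242, edgeR). Neither gene's groups overlapped. The Rpl24 call was lost without WT myoblast replicate 2 or 3 or any KO-labelled myoblast replicate (adjusted p = 0.0893 to 0.205, edgeR), and narrowly without WT differentiated replicate 2, WT fused replicate 2 or KO-labelled fused replicate 2 or 3 (adjusted p = 0.0504 to 0.0525, edgeR). It was also lost with DESeq2 size factors, the replicate block, the effective-length offset and protein-coding transcripts only. The Rpl4 call was lost without WT fused replicate 2, 3 or 4 or KO-labelled fused replicate 1 or 4 (adjusted p = 0.0594 to 0.0699, edgeR). It was also lost with the effective-length offset and without the filter on low counts, where Rpl22l1 was called lower in its place (-0.22, adjusted p = 0.0415, edgeR).

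In differentiated myotubes the KO-labelled libraries had 14 members called higher and 1 called lower, that is 18.8% of members against 25.2% of all genes; among all genes 11% were higher and 14.1% lower. The median member was higher by 0.08 on the log2 scale, against -0.01 for all genes. Rps27l had the largest rise, with 104 and 96.3 CPM in KO-labelled and 88.5, 86.5 and 76.4 CPM in WT libraries, a change of 0.26 ± 0.063 (adjusted p = 0.00265, edgeR). Rps27a, which is made as a fusion with ubiquitin, stood at 538 and 506 against 469, 457 and 413 CPM (0.23 ± 0.055). Rps15a, Rps25 and Rps27 were higher by 0.20 each. These genes were named among those whose groups did not overlap, so their separation is part of the choice. The one member called lower was Rpl3, with 396 and 405 CPM against 478, 451 and 467 CPM (-0.21 ± 0.045, adjusted p = 0.000763, edgeR).

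The counts at this stage turn on single libraries. Without WT replicate 1 of the differentiated stage 26 members were higher and 1 lower, without WT replicate 3 the count was 5 and 1, and without KO-labelled replicate 1 it was 1 and 1, the remaining KO-labelled library then being assumed to vary like the others. The calls for Rps27l, Rps27a, Rps15a, Rps25 and Rps27 were all lost in that last fit, and that for Rps15a also without WT replicate 3 and with the effective-length offset. Those for Rps25 and Rps27 were lost with scaling by library size alone, and that for Rps27 with the length and GC trend removed. The member share of counts in the 3 WT libraries was 3.51%, 3.22% and 3.08%. At this stage the KO-labelled libraries had 2 of the 9 muscle stage markers higher and 4 lower: Mymx, the fusion peptide, averaged 71.2 CPM in WT and 113 CPM in KO-labelled libraries, and Mymk, its partner, 1747 and 2114 CPM. Mki67 averaged 4.65 and 0.792 CPM, Pax7, a stem cell factor, 10.6 and 5.63, Myod1, which sets muscle fate, 814 and 657, and Myf5 63.3 and 55.2. Their part in the result was not tested. Of the 14 members that were higher, 9 were under 600 bases long, as were 36 of 79 tested members other than Rpl3l, and none of the 19 members of 800 bases or more was among them. Across 79 members the Spearman correlation of the difference with length was -0.60, as a description, and its part in the result was not tested. With the length and GC trend removed, 12 were higher and 3 lower, around a median of 0.01.

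**Figure D5:**
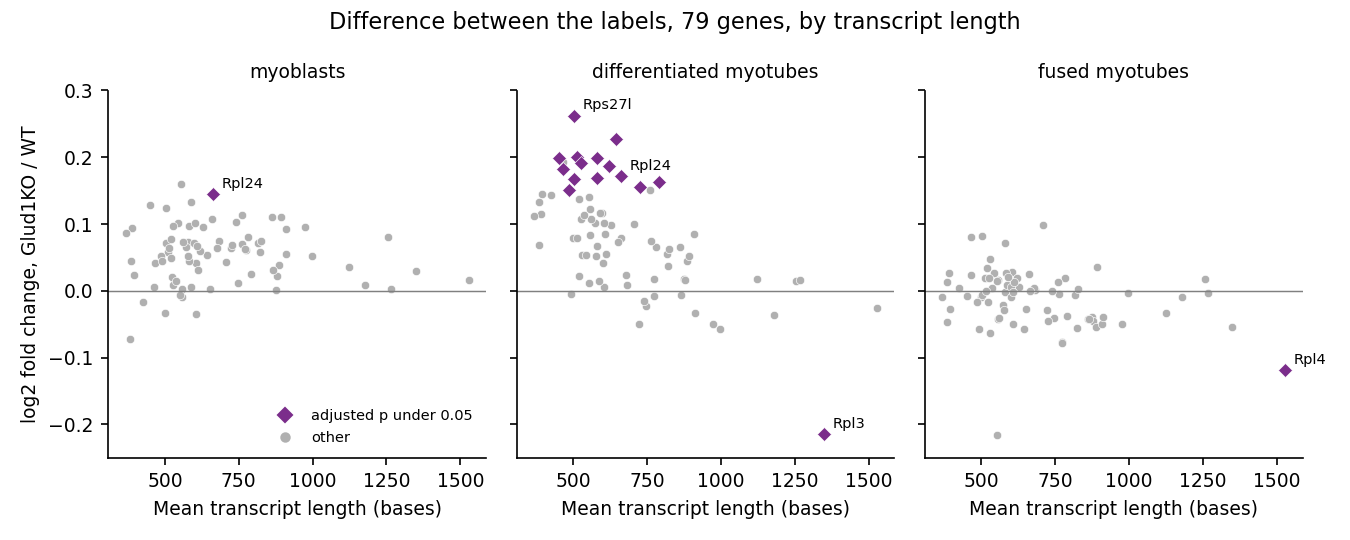
Log2 fold change of Glud1KO over WT libraries at each stage against mean transcript length in bases, for the 79 tested members other than Rpl3l. Diamonds passed an adjusted p of 0.05; in differentiated myotubes the 14 diamonds above zero lie below 800 bases and Rpl3, at 1349 bases, is the diamond below zero.

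Whether the label difference itself changed between stages was tested as an interaction. From myoblasts to differentiated myotubes it changed in 1 of 80 members, Rpl3 (-0.24 ± 0.060, adjusted p = 0.00444), where 19.1% of all genes were called, 11.3% with a label difference that moved down and 7.78% with one that moved up. Rpl3 thus fell further in KO-labelled libraries (-1.80 ± 0.047) than in WT (-1.56 ± 0.040). At the fused stage the labels were within 0.05 ± 0.035 of each other for Rpl3 (adjusted p = 0.358, edgeR). Its change in label difference from differentiated to fused myotubes was not called. Between differentiated and fused myotubes the label difference changed in 3 members, Rps27a (-0.28), Rps27 (-0.21) and Rps25 (-0.20). DESeq2 called 12 and the fit with the length and GC trend removed called 20. The 3 called by edgeR stand against 14.8% of all genes, 6.53% moving down and 8.27% moving up. All 3 were higher in KO-labelled differentiated myotubes, and the difference in fused ones was -0.06, -0.01 and -0.00. Without KO-labelled differentiated replicate 1 none of the 3 was called, and without WT fused replicate 1 the count was 13. The Rps25 call was lost in 18 alternatives and the Rps27 call in 13. Called or not, the label difference moved down at this step in 71 of 80 members, with a median of -0.09. Among all genes it moved down in 7610 of 15123, with a median of -0.002. Across the whole course no member was called by edgeR, against 10.3% of all genes, 4.55% moving down and 5.75% moving up; 10 of 80 members and 3519 of 15123 genes had an unadjusted p under 0.05, DESeq2 called no member, while 16 were called with the length and GC trend removed. The smallest adjusted p by edgeR were those of Rpl22l1 (0.0733), Rpl36al (0.0857) and Rps4x (0.0945).

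Rack1 and Fau, ribosomal proteins whose names lie outside the pattern, also fell from WT myoblasts to differentiated myotubes. Rack1, a signalling scaffold on the small subunit, fell by 0.91 on the log2 scale, and Fau, which is made as a fusion with a ubiquitin-like domain, fell by 0.59. The lists that follow share some genes. Of 18 genes outside the set known for a TOP start, 16 fell and 1 rose at this step, with a median of -0.58, against 42.6% of all genes lower and 42.4% higher. The falls were led by Pabpc1, the poly(A)-binding protein (-2.64 ± 0.045), and Npm1, a nucleolar chaperone (-2.21 ± 0.044), and the one rise was Naca (1.21 ± 0.057), which guards nascent chains at the ribosome. Naca was counted over all its transcripts, and which of them rose was not examined. Of the 18, 10 rose and 4 fell at the step to fused myotubes, where 37.4% of all genes were higher and 37.7% lower.

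Elongation factors bring transfer RNA to the ribosome and move it along. Of 6, 5 fell and 1 rose to the differentiated stage (all genes 42.6% lower, 42.4% higher), and 5 rose and none fell to the fused stage (all genes 37.4% higher, 37.7% lower). Over the whole WT course 3 rose and 3 fell, with a median of -0.08 (all genes 42.2% higher, 43.4% lower). Eef2 went from 4919 to 3229 and 4162 CPM on average in WT. Eef1a2, the muscle and neuron form of Eef1a, was at 0.0117 CPM on average in WT myoblasts, 0.324 in differentiated and 7.93 CPM in fused myotubes, and at 8.30 CPM in KO-labelled fused myotubes. Eef1a1 fell from 11302 to 5716 CPM and was at 5650 CPM in fused myotubes.

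Lists of genes that build the ribosome were compared at the step from WT myoblasts to differentiated myotubes, where 42.6% of all genes were lower and 42.4% higher. Of 57 nucleolar genes for processing ribosomal RNA, 51 fell and 3 rose, with a median of -0.80. Beside Npm1, the largest falls were those of Rcl1, a factor of early cleavage (-2.65 ± 0.081), Dkc1, the pseudouridine synthase (-1.99 ± 0.046), and Ncl, nucleolin (-1.92 ± 0.040). Of 14 genes of RNA polymerase I, which makes ribosomal RNA, 9 fell and 3 rose, with Twistnb (-1.43 ± 0.071) and its activator Ubtf (-1.22 ± 0.035) in front. Among 7 escorts, chaperones of single ribosomal proteins, 5 fell and 1 rose; Grwd1, which escorts Rpl3, fell by 1.09 ± 0.060. Of 17 tested regulators of ribosomal protein messenger RNA, 8 rose and 8 fell, a split close to that of all genes. Myc, a transcription factor that drives ribosome synthesis, went from 68.4 to 6.94 CPM on average (-3.29 ± 0.075), and the S6 kinases Rps6kb2 (1.73 ± 0.060) and Rps6kb1 (1.33 ± 0.043) rose.

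Some of the processing genes also passed the test between the labels. In KO-labelled myoblasts 15 of the 57 were higher than in WT and none lower, against 4.86% of all genes higher, with Nob1 (0.20 ± 0.048), Gnl3 (0.19 ± 0.040) and Nop56 (0.19 ± 0.032) in front. In differentiated myotubes 1 was higher and 8 were lower, where 11% of all genes were higher and 14.1% lower. In fused myotubes none was higher and 13 were lower, against 6.72% of all genes lower, among them Mdn1 (-0.30 ± 0.096) and Gnl3 (-0.21 ± 0.049). The change of the label difference from myoblasts to fused myotubes passed the test in 22 of the 57, all moving down, with a median of -0.16 over the 57, against 4.55% of all genes called in that direction. By edgeR no ribosomal protein gene passed it, though some did once the length and GC trend was removed, as given above. Called or not, 70 of 80 members moved down, with a median of -0.07. Among all genes 8019 of 15123 moved down, with a median of -0.02. A difference between the gene groups was not tested.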

How the data were processed

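Poly(A) RNA of 19 libraries was sequenced after Illumina TruSeq preparation, per the labels' protocols. The deposited values are estimated counts per transcript from kallisto, whose column names the file headers carry; kallisto 0.46.1, fastp 0.20.0, bcl2fastq 2.20, edgeR 3.36 and build GRCm38.p6 are listed in the submitters' processing notes. TPM values stand beside them as deposited by the authors, scaled per length and to a fixed total. Strand use in counting is not given in the sources used here. Estimated counts were summed per gene through GENCODE M21 names and rounded; TPM were summed without change. Of all 121843 transcripts 825 had no match and were left out (0.255% to 0.507% of counts).

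Genes passing edgeR's expression filter (15123) were fitted in 1 model of 6 groups over all libraries, scaled by TMM, with edgeR 4.0.16 in R 4.3.3, giving 12 comparisons tested by quasi-likelihood. Adjusted p-values are Benjamini-Hochberg over all genes tested. The script was tested on simulated data. DESeq2 1.42.0 and other scalings, filters, length corrections and left-out libraries were alternatives. Replicate numbers did not pair the libraries. Members, lists and tests were chosen with earlier results of these data known. Named members were, per comparison, the 5 largest called changes in each direction with non-overlapping groups and a mean of at least 1 CPM, the 3 smallest adjusted p for interactions, the paralog pairs, the stalk proteins and Rpsa, and up to 3 genes per list. The Rps24 and Rpl3 transcripts, Rpl24, Rps24, Naca and Rps6kb1 were also named after their values were seen. Intervals and the floor of 3 counts cover counting error only.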

Additional observations from a re-analysis of the deposited data

Results flagged for a closer look

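In groups of 4 libraries, 68 checks for a library far from its group found 3, where chance gives about 1 in 20. Rpl10 stood at 535 CPM in KO-labelled fused replicate 4 and Rpl22 at 179 CPM in the same library, each below the other 3. Rpl4 stood at 802 CPM in WT fused replicate 1, below the other 3.

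The difference between KO-labelled and WT libraries changed between stages in 4 members by edgeR's interaction test. For Rpl3 it moved by -0.24 on the log2 scale from myoblasts to differentiated myotubes. From differentiated to fused myotubes it moved by -0.28 for Rps27a, by -0.21 for Rps27 and by -0.20 for Rps25.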

How the results depend on the processing

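Of 4099 recomputed values for 137 member results, 113 changed sign, 100 of them for values that passed the threshold neither before nor after. Called values fell short of it 85 times, and 39 values gained a call with the same sign. Of 69 called stage changes, 10 lost the call at least once. The causes were not tested, and the shares of all genes called under the alternatives are not given here. Depth limits Rpl3l before fusion, and the 2 KO-labelled differentiated libraries limit that stage.

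Members called between the labels in myoblasts (1) numbered 0 with DESeq2 size factors, the replicate block, the effective-length offset or DESeq2, 2 with protein-coding transcripts only, 3 without the filter, 4 with the length and GC trend removed and 6 with only the libraries compared. In differentiated myotubes (15) they numbered 5 by library size only, 7 with the effective-length offset and 8 with only the libraries compared. In fused myotubes (1) they numbered 0 with the effective-length offset and 20 with the trend removed. From differentiated to fused myotubes, trend removal gave 70 in WT (35) and 78 in KO-labelled libraries (32).

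The change of the label difference to differentiated myotubes (1) was called in 3 members with DESeq2 size factors, library size only or DESeq2, in 2 without the filter or with protein-coding transcripts only, and in 7 with the trend removed. From differentiated to fused myotubes (3) it was called in 5 with DESeq2 size factors, no filter or protein-coding transcripts only, in 1 with the replicate block, the effective-length offset or only the libraries compared, in 20 with the trend removed and in 12 by DESeq2. Over the whole course (0) it was called in 1 without the filter or with only the libraries compared, and in 16 with the trend removed.

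With 1 library left out at a time, counts between labels ran from 0 to 3 in myoblasts, 2 to 27 in differentiated and 0 to 1 in fused myotubes. WT stage counts ran from 77 to 79, 32 to 40 and 76 to 78, and KO-labelled ones from 75 to 79, 20 to 35 and 79 to 80; the 20 came without KO-labelled differentiated replicate 1. Interaction counts ran from 1 to 4, highest without WT differentiated replicate 1, from 0 to 13, and from 0 to 2, highest without WT fused replicate 1. The 0 to 13 range ran from the fit without KO-labelled differentiated replicate 1 to that without WT fused replicate 1.

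Where a call was involved, 13 signs changed. They changed with the trend removed for WT differentiated to fused myotubes in Rpl22 (-0.15), Rpl29 (-0.0075), Rpl36al (-0.12), Rpl38 (-0.072), Rplp2 (-0.21), Rps27 (-0.30), Rps27l (-0.13) and Rps29 (-0.042), for the same step in KO-labelled libraries in Rps29 (-0.11), and over the WT course in Rpl36al (-0.20, and -0.30 by library size only). With protein-coding transcripts only, Rpl23a changed by -3.55 from differentiated to fused KO-labelled myotubes and Rpl36al by 0.0037 from WT myoblasts to differentiated myotubes. Members then held 6.25%, 3.05% and 2.80% of counts in WT myoblasts, differentiated and fused myotubes, and 6.47%, 3.07% and 2.77% in KO-labelled ones.

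Same-numbered libraries did not deviate together (correlations from -0.0894 to 0.102 over 41 pairs), so the replicate block shares only a number. Adding counts of pseudogenes named after members was not run, since 0 were found.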
